A study of Mus musculus with 24 samples.

Results

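The replication-dependent histone genes are the clustered genes for the linker histone H1 and the core histones H2A, H2B, H3 and H4. They were taken as every gene whose symbol was H1f1 to H1f5 or began with H2ac, H2bc, H3c or H4c and a number, and that had a probe set annotated to it alone. This gave 26 of the 19938 genes measured: 4 for H1 (H1f1, H1f2, H1f3, H1f5), 4 for H2A (H2ac1, H2ac4, H2ac8, H2ac15), 9 for H2B (H2bc1, H2bc3, H2bc4, H2bc8, H2bc9, H2bc14, H2bc18, H2bc21, H2bc22), 3 for H3 (H3c4, H3c7, H3c15) and 6 for H4 (H4c3, H4c4, H4c6, H4c8, H4c9, H4c14). Each had 1 probe set. By RefSeq, 22 lie on mouse chromosome 13 and 4 on chromosome 3. RefSeq lists 63 mouse genes that match the symbols. A further 36 were annotated only on probe sets shared with other genes, among them H1f4, and 1 was not listed. Because paralogs differ little in sequence, RNA of one copy can bind probes of another, so the value of a single member is uncertain as to which copy it reports.

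In a dividing cell, histone protein is made in step with DNA synthesis: H3 and H4 are deposited together, H2A and H2B join as dimers, and H1 binds the linker DNA between nucleosomes. The genes for these histones have no introns, and their messages end in a conserved stem-loop in place of a poly(A) tail, are processed with the stem-loop-binding protein and the U7 particle, and are destroyed when DNA synthesis stops. A naive CD4 T cell is quiescent and enters rapid division after stimulation through its antigen receptor.

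Naive CD4 T cells came from wild-type mice (WT) of the 129SvEv strain or from Batf1/3DKO mice of the same labelled strain (DKO), which lack Batf and Batf3, transcription factors that bind DNA with Irf4. Both genotypes were measured unstimulated at day 0, after 2 days of TH2-polarising culture, for which no anti-CD3e dose is given, and after 4 days at a low (2.2 ng/ml) or a high (10 ng/ml) concentration of soluble anti-CD3e. Anti-CD28 was present in the stimulated cultures, with anti-hamster IgG on the plate to cross-link it. Each of the 8 groups held 3 single-colour arrays, 24 in all, of biotin-labelled target made from total RNA with a whole-transcript kit. The series title asks how the strength of T cell receptor signalling is read out by enhancers that bind Batf and Irf4. Whether replicate arrays came from different mice or cultures is not stated, so that p-values here cover the spread among these arrays alone, which may be technical.

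Replicate arrays correlated at 0.983 to 0.992. Batf stood at 135 ± 20.9 to 1595 ± 99.8 in the WT groups and 31.2 ± 3.16 to 46.5 ± 4.87 in the DKO groups (SD, n = 3). Batf3 was near the background guide described next in all groups (means of 24.2 to 35.8) but WT cells at 10 ng/ml, at 146 ± 32.8 against 29.8 ± 4.57 in DKO cells, so the loss of Batf3 can be checked in that comparison alone. All 8 measured CD4 T cell genes (of 10 listed) were above the background guide in every group. Of 7 B cell markers no more than 1, of 8 myeloid markers 2, of 6 NK and CD8 markers 1 and of 1 erythroid marker no more than 1 were above it. The guide is an intensity of 28.6, the median over the means of all probe sets; a probe set at or under it may hold background alone, and its folds then come out too small. Every group mean was above the guide for 18 members, every group mean was below it for H3c7, and both day 0 means were below it for H1f3, H2ac4, H2ac8, H2bc1, H3c4, H3c7 and H3c15. These are bulk measurements, in which fewer cells of a type and less RNA per cell cannot be told apart.

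The promoters of the genes that carry the results below show what the members share in sequence. RefSeq promoter windows (build GRCm38.p6) of 300 bases, from 250 before to 50 after the start, were at hand for 22 members and not for H2bc4, H2bc21, H3c7 and H4c14. The 150 bases before the start are printed for the 4 H1 genes, which moved differently from each other, for the H2A and H2B genes with the largest changes, for the further H2B genes H2bc9 and H2bc18, and for the H4 gene with the brightest probe set. In order, they lie at chr13:23763518-23763667 (plus strand), chr13:21780626-21780775 (minus strand), chr13:23554882-23555031 (plus strand), chr13:23738657-23738806 (plus strand), chr13:23750938-23751087 (plus strand), chr13:21721894-21722043 (plus strand), chr13:23746584-23746733 (plus strand), chr3:96269550-96269699 (plus strand), chr13:23543445-23543594 (minus strand) and chr13:23581418-23581567 (plus strand). Capitals mark the CCAAT box, the letters TATAAA of the TATA box, the octamer ATTTGCAT and the element AAACACA known from H1 promoters. They are marked at any position and on either strand, so that a CCAAT box on the other strand is seen as ATTGG.
H1f1: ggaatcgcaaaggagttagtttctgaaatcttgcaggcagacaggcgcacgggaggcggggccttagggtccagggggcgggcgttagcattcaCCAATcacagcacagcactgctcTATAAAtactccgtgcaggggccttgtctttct
H1f5: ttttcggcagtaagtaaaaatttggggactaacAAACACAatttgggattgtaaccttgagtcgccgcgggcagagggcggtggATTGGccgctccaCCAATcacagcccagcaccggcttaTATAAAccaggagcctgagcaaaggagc
H1f3: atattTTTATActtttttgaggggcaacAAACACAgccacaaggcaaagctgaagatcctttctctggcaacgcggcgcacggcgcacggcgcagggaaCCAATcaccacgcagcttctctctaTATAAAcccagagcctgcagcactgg
H1f2: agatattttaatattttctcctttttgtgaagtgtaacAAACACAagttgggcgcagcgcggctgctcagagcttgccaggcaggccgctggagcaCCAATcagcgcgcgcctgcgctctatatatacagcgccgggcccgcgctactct
H2ac4: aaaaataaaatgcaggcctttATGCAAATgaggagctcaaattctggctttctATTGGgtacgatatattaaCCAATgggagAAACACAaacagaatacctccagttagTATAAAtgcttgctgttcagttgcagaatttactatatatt
H2bc14: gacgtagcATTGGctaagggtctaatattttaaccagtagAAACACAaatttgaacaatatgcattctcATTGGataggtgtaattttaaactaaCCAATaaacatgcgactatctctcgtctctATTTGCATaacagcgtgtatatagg
H2bc3: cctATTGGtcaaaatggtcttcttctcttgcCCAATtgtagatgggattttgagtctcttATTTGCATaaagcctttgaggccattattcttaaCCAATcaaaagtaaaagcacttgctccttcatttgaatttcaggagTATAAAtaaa
H2bc18: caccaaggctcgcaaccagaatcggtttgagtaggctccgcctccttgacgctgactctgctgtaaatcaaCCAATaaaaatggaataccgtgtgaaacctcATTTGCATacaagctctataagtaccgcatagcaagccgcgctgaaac
H2bc9: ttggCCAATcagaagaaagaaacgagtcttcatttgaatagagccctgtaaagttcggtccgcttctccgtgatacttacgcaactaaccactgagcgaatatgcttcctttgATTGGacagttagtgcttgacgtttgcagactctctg
H4c4: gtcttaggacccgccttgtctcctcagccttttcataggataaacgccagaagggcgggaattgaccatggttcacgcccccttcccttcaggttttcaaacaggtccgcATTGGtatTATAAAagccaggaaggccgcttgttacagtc

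CCAAT occurred in 19 of the 22 windows (86.4%), against 37.4% of all 32851 promoter windows in the table. In the H1 promoters the CCAAT nearest the start began 56 (H1f1), 53 (H1f5), 51 (H1f3) and 54 (H1f2) bases upstream. TATAAA was found in 15 windows (68.2%, against 13.6% of all). Its matches began from 250 bases upstream (H4c6) to 21 bases downstream (H2ac15) of the start, on either strand. Not every match is therefore placed as a TATA box. The octamer was found in 8 (36.4%, against 1.74%), of which 5 were among the 7 H2B and 3 among the 4 H2A windows. AAACACA was found in 7 (31.8%, against 7.18%), including 3 of the 4 H1 windows. The motif TGANTCA, to which AP-1 and Batf heterodimers are known to bind, was found in 1 window, that of H1f5 (4.55%, against 7.81%). H2ac8 with H2bc8, and H2ac1 with H2bc1, are divergent pairs whose windows overlap, so their matches are not separate. No marked match overlaps another in the printed sequences. A match is a description of these letters and not evidence that a factor binds.

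After 2 days of culture most histone genes rose steeply from the naive state in both genotypes. In WT cells 21 of 26 were higher than at day 0 (adjusted p under 0.05 over all genes, limma), where 19.7% of all genes tested were higher, and 2 were lower, where 20.5% were. In DKO cells 20 were higher and 1 lower, where 15.3% and 13.3% of all genes were. The median log2 change over the 26 was 1.65 in WT and 2.01 in DKO cells, against -0.11 and -0.01 over all genes. The same 19 genes were higher in both genotypes, and H2bc4 was lower in both. By class, the genes higher in WT cells were 3 of 4 for H1, 3 of 4 for H2A, 6 of 9 for H2B, all 3 for H3 and all 6 for H4. Some markers of other cells moved with this comparison, in which 20.5% of all genes were called lower in WT and 13.3% in DKO cells. The summed intensity of the 8 myeloid markers ran from 506 to 538 at day 0 and 153 to 173 at day 2 in WT cells, and from 603 to 657 and 228 to 326 in DKO cells, with 3 of 8 called lower in each genotype (Ctss, Tyrobp and Itgam). Of the 6 NK and CD8 markers 2 were called lower in WT cells (Klrd1 and Klrb1c) and 1 in DKO cells (Klrd1). Of the 7 B cell markers 0 were called in WT cells (limma, 2 at unadjusted p under 0.05, share of all genes not given) and 1 was higher and 1 lower in DKO cells. The part of these markers in the histone rise was not tested.

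The largest rise was that of H2ac4, an H2A gene. It read 5.46, 7.86 and 6.30 on the WT day 0 arrays and 353, 316 and 415 on the WT day 2 arrays. The day 0 values lie below the guide and every day 2 value far above it, a 55.5-fold (95% CI 39.4 to 78.1) rise that understates the change if day 0 is background (adjusted p = 1.29e-15). The DKO arrays read 6.77, 6.27 and 16.8 at day 0 and 362, 397 and 401 at day 2, a 43.3-fold (95% CI 30.8 to 60.9) rise.

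H1f5, a linker histone gene, read 60.6, 28.3 and 30.9 in WT cells at day 0 and 1552, 1571 and 1329 at day 2. The groups are far apart, with a 39.4-fold (95% CI 29.6 to 52.4) rise in WT (adjusted p = 2.23e-16) and a 42.6-fold (95% CI 32.1 to 56.7) rise in DKO cells. H1f1, another H1 gene, went from 31.1, 58.5 and 68.7 to 399, 390.0 and 355 in WT cells, a 7.62-fold (95% CI 5.66 to 10.2) rise (adjusted p = 3.26e-11), and rose 12.2-fold (95% CI 9.10 to 16.5) in DKO cells.

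Among the H2B genes, H2bc3 rose 19.2-fold (95% CI 14.4 to 25.6) and H2bc14 18.1-fold (95% CI 14.5 to 22.6) in WT cells (adjusted p = 1.66e-16 for H2bc14). H2bc14, whose probe set is the brightest of the H2B genes, read 222, 194 and 181 at day 0 and 3758, 3587 and 3436 at day 2, with no overlap. H4c4, with the brightest H4 probe set, was already at 1255, 1381 and 1116 in naive WT cells and reached 6415, 6522 and 5894, a 5.03-fold (95% CI 4.29 to 5.90) rise (adjusted p = 2.19e-14). The dimmest H4 gene, H4c9, rose 3.00-fold (95% CI 2.49 to 3.62), from 40.7 ± 6.66 (SD, n = 3) to 121 ± 3.73. The H2A gene H2ac15 rose 10.4-fold (95% CI 8.48 to 12.7), from 127 ± 9.28 to 1315 ± 68.3. The H3 genes with a probe set of their own did not exceed a group mean of 89.5. H3c4 rose 1.83-fold (95% CI 1.46 to 2.30), from 26.9, 27.6 and 30.7 to 53.6, 52.2 and 50.4 (adjusted p = 7.77e-05).

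H2bc9 rose from 123 ± 7.41 to 1363.5 ± 135 (SD, n = 3) in WT cells, and H4c6 from 71.2 ± 7.93 to 569 ± 16.7. H2ac8, H2bc8, H2bc18, H4c3 and H4c14 were also called higher at day 2 in both genotypes. Other members fell, did not pass the test, or rose at low levels or with calls that ended in alternatives. H2bc4 read 53.7, 47.4 and 38.3 at day 0 and 26.1, 5.74 and 21.5 at day 2 in WT cells, and 30.7, 39.1 and 41.0 and 16.5, 9.97 and 9.59 in DKO cells. It was lower on every day 2 array than on any day 0 array of its genotype, by 3.12-fold (95% CI 1.74 to 5.60) in WT (adjusted p = 0.00225) and 3.14-fold (95% CI 1.75 to 5.65) in DKO cells (adjusted p = 0.00264), although the day 2 levels lie below the guide. H2bc21, which encodes an H2B form known in the mouse from non-dividing olfactory neurons, fell 1.46-fold (95% CI 1.15 to 1.86) in WT cells (adjusted p = 0.0105), with a call that ended without WT day 2 replicate 3 (0.0712) and without WT day 2 replicate 3 and WT 2.2 ng/ml replicate 3 together (0.0542). In DKO cells H2bc21 gave 0.11 ± 0.17 on the log2 scale (adjusted p = 0.714). For log2 changes, here and below, ± is the standard error of the fitted change and not an SD among arrays. H1f2, an H1 gene well above the guide in naive cells, read 331, 619.8 and 374 at day 0 and 349, 337 and 354 at day 2 in WT cells, which overlap, with -0.29 ± 0.28 (adjusted p = 0.427) and -0.65 ± 0.28 in DKO cells (adjusted p = 0.0903). H2bc22 was not called in either genotype. H1f3 rose 2.24-fold (95% CI 1.59 to 3.17) in WT cells, from 14.1 ± 1.32 to 31.5 ± 2.74, and 1.87-fold (95% CI 1.32 to 2.64) in DKO cells, where the call ended without DKO day 0 replicate 1 (0.0669). H2bc1, which encodes a testis form of H2B, rose 2.04-fold (95% CI 1.63 to 2.55) in WT cells, around the guide. H3c7 was called in WT cells (adjusted p = 0.0475) at levels below the guide, with a call that ended without WT day 0 replicate 1 (0.114) or 2 (0.123) and without WT day 2 replicate 1 (0.195) or 3 (0.0662). H4c8 (adjusted p = 0.0321), whose WT day 0 arrays read 45.0, 184 and 43.5, lost its call under 9 alternatives (adjusted p up to 0.185), and H3c15 lost its call without WT day 0 replicate 2 (0.0584).

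No member was called between genotypes at day 0, where 0.0552% of all genes were higher and 0.01% lower in DKO cells, or at day 2, where 1.03% were higher and 1.68% lower. At unadjusted p under 0.05, limma gave 5 members at day 0 and 4 at day 2. The change from day 0 to day 2 itself differed between genotypes for 0 members (0.306% of all genes more positive and 0.742% more negative in DKO cells), with 4 at unadjusted p under 0.05. The share of all genes at unadjusted p under 0.05 is not given here. The unadjusted counts therefore cannot be set against the shares at the adjusted threshold. A difference that misses the threshold does not show that the genotypes act alike.

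**Figure D1:**
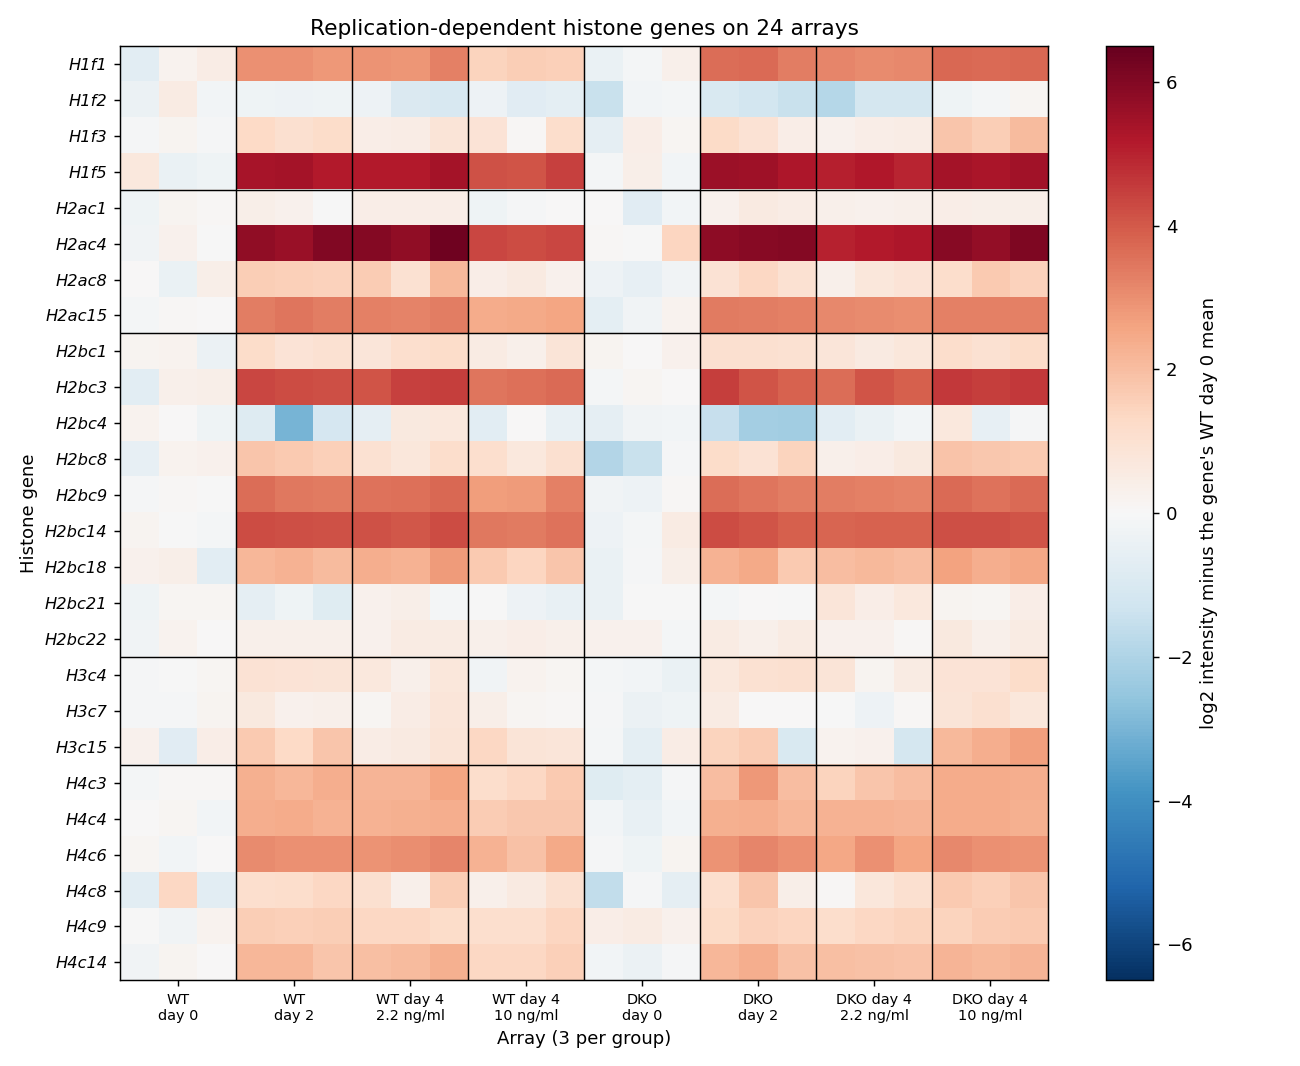
Log2 intensity of the 26 histone genes (rows) on the 24 arrays (columns, 3 per group), each minus the gene's WT day 0 mean, red for higher and blue for lower. The day 0 columns are pale, most rows are red from day 2 on, and the 3 WT columns at 10 ng/ml are paler than those at 2.2 ng/ml in most rows.

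At day 4 most histone genes were still above day 0 in all 4 groups. Against day 0, 20 members were higher and 1 lower in WT cells at 2.2 ng/ml (16.1% and 13.1% of all genes), 17 higher and 0 lower in WT cells at 10 ng/ml (18.4% and 18%), 20 higher and 1 lower in DKO cells at 2.2 ng/ml (11.6% and 8.28%) and 22 higher and 0 lower in DKO cells at 10 ng/ml (16.4% and 14.3%). The median log2 change over the 26 was 1.43, 1.09, 1.499 and 2.46 in that order. These comparisons share the day 0 arrays of each genotype. Some of the higher calls ended in alternatives. In WT cells at 2.2 ng/ml these were H2ac1 (7 of 13), H3c7 (6 of 12), H2bc8 (3 of 13) and H2bc22 (3 of 13). In WT cells at 10 ng/ml they were H2bc22 (8 of 13), H1f3 (4 of 12), H2bc1 (3 of 12) and H2bc8 (1 of 13). In DKO cells at 2.2 ng/ml they were H4c8 (4 of 13), H2bc1 (2 of 12) and H2ac1 (1 of 13). H2ac4, H1f5, H2bc3 and H2bc14 had the largest rises in WT cells at 10 ng/ml, at 19.9-fold, 18.8-fold, 11.95-fold and 10.7-fold. The same 4 genes led in DKO cells at 10 ng/ml, at 43.0-fold, 40.4-fold, 23.4-fold and 17.7-fold. H1f2 was the lower gene at 2.2 ng/ml in both genotypes (-0.78 ± 0.28 in WT and -0.80 ± 0.28 in DKO cells on the log2 scale). Its call ended without WT 2.2 ng/ml replicate 2 (0.108) or 3 (0.149), without WT day 0 replicate 2 (0.213), in a fit of the compared groups alone (0.0521) and without WT day 2 replicate 3 and WT 2.2 ng/ml replicate 3 together (0.164) in WT cells, and without DKO 2.2 ng/ml replicate 1 (0.221), without DKO day 0 replicate 2 (0.214) or 3 (0.22), in a fit of the compared groups alone (0.11) and without WT day 2 replicate 3 and WT 2.2 ng/ml replicate 3 together (0.0507) in DKO cells.

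Against day 2, WT cells at 10 ng/ml had 15 members lower and 1 higher, where 12.9% and 10.3% of all genes were, with a median log2 change of -0.62. The WT cells at 2.2 ng/ml had 0 lower and 2 higher (6.46% and 4.74%), with a median of 0.03. At unadjusted p under 0.05 limma gave 5 members, a threshold for which the share of all genes is not given. In DKO cells 0 were lower and 2 higher at 2.2 ng/ml (2.43% and 3.74%), and 0 lower and 5 higher at 10 ng/ml (1.75% and 3.43%). The falls in WT cells from day 2 to 10 ng/ml were led by H2ac4 (2.79-fold (95% CI 1.99 to 3.93) lower), H1f1 (2.65-fold (95% CI 1.97 to 3.57)), H2ac8 (2.16-fold (95% CI 1.57 to 2.96)) and H1f5 (2.10-fold (95% CI 1.58 to 2.79)). Of the 15 falls, the calls of H4c9, H2bc1 and H2bc3 ended in 7 of 13, 6 of 12 and 3 of 13 alternatives. H2bc4 returned from its low day 2 level in all 4 comparisons, by 3.74-fold (95% CI 2.08 to 6.72) and 2.41-fold (95% CI 1.34 to 4.34) in WT cells at 2.2 and 10 ng/ml, and 2.93-fold (95% CI 1.63 to 5.27) and 3.98-fold (95% CI 2.21 to 7.14) in DKO cells. Its calls ended in a fit of the compared groups alone (0.0505) for WT at 2.2 ng/ml, without WT 10 ng/ml replicate 2 (0.12), without WT day 2 replicate 2 (0.281), in a fit of the compared groups alone (0.0786) and with a variance trend and robust moderation (0.0521) for WT at 10 ng/ml and without DKO 2.2 ng/ml replicate 1 (0.0517) or 2 (0.0675) or 3 (0.0776), without DKO day 2 replicate 2 (0.092) or 3 (0.103) and with a variance trend and robust moderation (0.0506) for DKO at 2.2 ng/ml. H2bc21 rose 1.66-fold (95% CI 1.31 to 2.11) in WT and 1.60-fold (95% CI 1.26 to 2.04) in DKO cells at 2.2 ng/ml, the latter with a call that ended without DKO 2.2 ng/ml replicate 1 (0.0801). In DKO cells at 10 ng/ml the others that rose were H3c15 (3.17-fold), H1f2 (2.19-fold), H1f3 (1.91-fold) and H3c7 (1.60-fold). The H3c15 call ended without DKO 10 ng/ml replicate 1 (0.0641) or 2 (0.101) or 3 (0.148), without DKO day 2 replicate 3 (0.3), in a fit of the compared groups alone (0.144) and with a variance trend and robust moderation (0.0866). The H1f3 call ended without DKO 10 ng/ml replicate 1 (0.0569) or 3 (0.119) and without DKO day 2 replicate 2 (0.0527) or 3 (0.157), that of H3c7 without DKO 10 ng/ml replicate 2 (0.0895) and without DKO day 2 replicate 2 (0.0885) or 3 (0.0876) and that of H1f2 without DKO 10 ng/ml replicate 3 (0.0897) and without DKO day 2 replicate 3 (0.0857).

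In WT cells at day 4 the histone genes were lower at 10 than at 2.2 ng/ml of anti-CD3e. Of the 26, 15 were lower and 0 higher, where 7.52% and 7.64% of all genes were. In 15 members the 3 arrays at 10 ng/ml all lay below the 3 at 2.2 ng/ml, as they did for 15.3% of all genes. The median log2 change over the members was -0.61, against -0.04 over all genes. By class, 2 of 4 H1, all 4 H2A, 4 of 9 H2B, 1 of 3 H3 and 4 of 6 H4 genes were lower.

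H2ac4 had the largest fall. It read 400.4, 348 and 520.5 at 2.2 ng/ml and 132, 123 and 131 at 10 ng/ml, a 3.24-fold (95% CI 2.30 to 4.57) lower level (adjusted p = 1.2e-05). The replicates at 10 ng/ml lay close together and far below every one at 2.2 ng/ml. H1f1 read 376, 363 and 486 and 137, 149.9 and 145, with no overlap and a 2.82-fold (95% CI 2.09 to 3.79) lower level (adjusted p = 1.01e-05). H1f5 read 1336, 1352 and 1574 and 665, 636 and 827, a 2.01-fold (95% CI 1.51 to 2.67) lower level (adjusted p = 0.000687).

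H2ac8, the dimmest H2A gene, read 32.3, 20.7 and 44.4 at 2.2 ng/ml and 14.1, 15.6 and 12.8 at 10 ng/ml, where it is below the guide, and was 2.20-fold (95% CI 1.60 to 3.02) lower (adjusted p = 0.000617). H2bc14 read 3466, 3245 and 3731 and 2116, 2037 and 2251 (1.63-fold (95% CI 1.31 to 2.03) lower, adjusted p = 0.0019), and H4c4 read 5923, 6088 and 6485 and 3929, 4169.6 and 4161 (1.51-fold (95% CI 1.29 to 1.77) lower, adjusted p = 0.000408). Neither gene's groups overlap.

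H2ac15 was 1.72-fold (95% CI 1.41 to 2.11) lower (adjusted p = 0.000265). H3c4 was 1.45-fold (95% CI 1.16 to 1.83) lower, from 45.1, 36.0 and 47.8 to 24.1, 33.3 and 31.4, with no overlap, and its call ended without WT 10 ng/ml replicate 1 (0.154), without WT 2.2 ng/ml replicate 1 (0.0775) or 3 (0.101), in a fit of the compared groups alone (0.072) and without WT day 2 replicate 3 and WT 2.2 ng/ml replicate 3 together (0.115). The calls of H2ac1, H2bc3 and H2bc18 also ended in some alternatives: H2ac1 without WT 10 ng/ml replicate 1 (0.0931), H2bc3 without WT 2.2 ng/ml replicate 3 (0.0556) and without WT day 2 replicate 3 and WT 2.2 ng/ml replicate 3 together (0.064) and H2bc18 without WT 10 ng/ml replicate 2 (0.0892), without WT 2.2 ng/ml replicate 3 (0.0998) and without WT day 2 replicate 3 and WT 2.2 ng/ml replicate 3 together (0.112). The other 11 members were not called: among the named ones H1f2 gave 0.22 ± 0.28, H1f3 0.12 ± 0.24, H2bc1 -0.44 ± 0.16, H3c7 -0.29 ± 0.17 and H4c9 -0.10 ± 0.13 on the log2 scale. Their adjusted p-values lay between 0.0576 (H2bc1) and 0.979 (H2bc8).

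In DKO cells the direction was the opposite. At 10 against 2.2 ng/ml, 8 members were higher and 0 lower, where 4.47% and 3.68% of all genes were, and the median log2 change was 0.45 against -0.01 over all genes. In 23 members the 3 arrays at 10 ng/ml all lay above the 3 at 2.2 ng/ml, as they did for 13.1% of all genes. The largest rise was that of H3c15, which read 20.2, 21.0 and 7.66 at 2.2 ng/ml and 72.9, 88.3 and 107 at 10 ng/ml, 5.97-fold (95% CI 3.03 to 11.7) (adjusted p = 0.000665). At 2.2 ng/ml all 3 arrays lay below the guide and at 10 ng/ml all lay above it.

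H1f3 read 16.9, 19.1 and 19.8 and 48.2, 42.9 and 58.1, a 2.66-fold (95% CI 1.88 to 3.75) rise (adjusted p = 0.000299). H1f2 read 118, 191 and 194 and 352, 383 and 465, a 2.43-fold (95% CI 1.63 to 3.63) rise (adjusted p = 0.00351), and H2bc8 rose 2.44-fold (95% CI 1.61 to 3.68) (adjusted p = 0.00464). None of these 3 genes had overlapping groups. H3c7 rose 1.95-fold (95% CI 1.53 to 2.47) below the guide. The calls of H2ac8, H2bc3 and H4c3 ended without single arrays: H2ac8 without DKO 10 ng/ml replicate 2 (0.127) or 3 (0.0743) and without DKO 2.2 ng/ml replicate 1 (0.148), H2bc3 without DKO 10 ng/ml replicate 1 (0.0878) or 2 (0.0714) or 3 (0.0973) and without DKO 2.2 ng/ml replicate 1 (0.176) or 3 (0.0728), and H4c3 without DKO 10 ng/ml replicate 1 (0.106) or 2 (0.116) or 3 (0.0945) and without DKO 2.2 ng/ml replicate 1 (0.251) or 2 (0.0849). Of the 4 genes with the largest fall in WT cells, H2ac8 was higher with dose in DKO cells (1.76-fold (95% CI 1.28 to 2.41), adjusted p = 0.0211). For H2ac4, H1f1 and H1f5 the DKO values were 0.75 ± 0.24 (adjusted p = 0.0527), 0.58 ± 0.21 (adjusted p = 0.0913) and 0.32 ± 0.20 (adjusted p = 0.449) on the log2 scale, and these 3 did not pass.

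**Figure D2:**
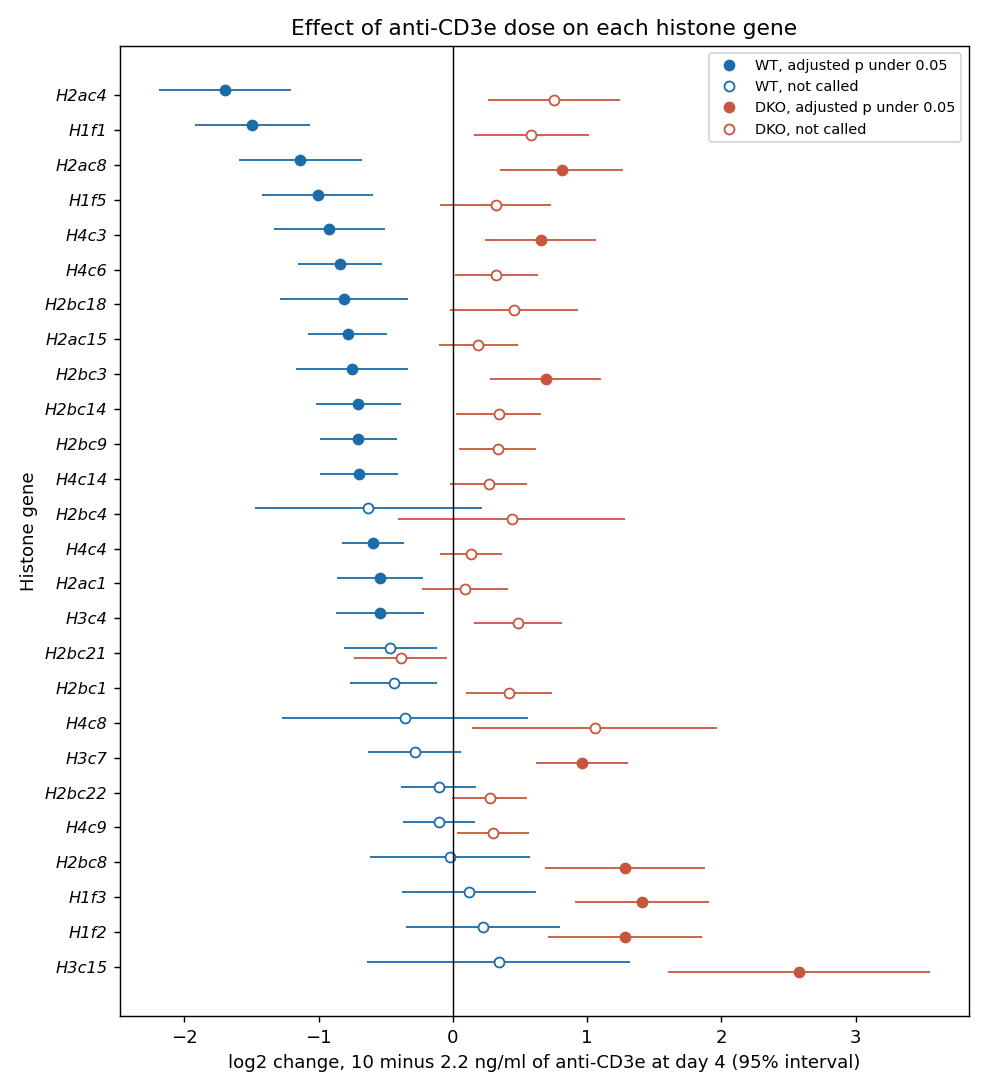
Log2 change of each of the 26 histone genes (rows) from 2.2 to 10 ng/ml of anti-CD3e at day 4, in WT (blue) and DKO cells (red), with bars for the 95% interval and filled points for adjusted p under 0.05. All 15 filled WT points lie left of 0 and all 8 filled DKO points right of 0.

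At 10 ng/ml the histone genes were higher in DKO than in WT cells. Of the 26, 20 were higher and 0 lower, where 6.68% and 6.09% of all genes were, with a median log2 difference of 0.79 against 0.03 over all genes. In 24 members every DKO array lay above every WT array, as for 15.8% of all genes. The higher genes were 3 of 4 for H1, all 4 for H2A, 6 of 9 for H2B, 2 of 3 for H3 and 5 of 6 for H4. This comparison uses the same WT arrays at 10 ng/ml as the WT dose comparison, so the values are given side by side and not as separate support.

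H1f1 differed most. It read 137, 149.9 and 145 in WT and 666, 644 and 668 in DKO cells at 10 ng/ml, 4.59-fold (95% CI 3.41 to 6.18) higher in DKO cells (adjusted p = 2.62e-08). The spread within each group is small beside the gap. H2ac4 read 132, 123 and 131 in WT and 391, 336 and 428 in DKO cells, 2.98-fold (95% CI 2.12 to 4.20) higher (adjusted p = 3.26e-05). H1f5 read 665, 636 and 827 and 1570.4, 1484 and 1627, 2.21-fold (95% CI 1.66 to 2.94) higher (adjusted p = 0.000186), again with no overlap. H1f3 read 26.2, 14.8 and 31.2 and 48.2, 42.9 and 58.1, 2.15-fold (95% CI 1.52 to 3.03) higher (adjusted p = 0.00223), with 2 of 3 WT arrays below the guide.

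Smaller differences were found for the bright genes H2bc14 (2134 ± 109 and 3538 ± 169, 1.66-fold (95% CI 1.33 to 2.07)), H4c4 (4086 ± 136 and 6459.6 ± 283, 1.58-fold (95% CI 1.35 to 1.85)) and H2ac15 (711 ± 36.8 and 1215 ± 16.4, 1.71-fold (95% CI 1.40 to 2.09)). H3c4 was 1.93-fold (95% CI 1.54 to 2.42) higher and H2ac8 2.01-fold (95% CI 1.46 to 2.76) higher. H2bc1 (adjusted p = 0.0192) lost its call without DKO 10 ng/ml replicate 1 (0.069) or 3 (0.0738) and without WT 10 ng/ml replicate 1 (0.0667) or 2 (0.127). H4c9 (adjusted p = 0.0356) lost it without DKO 10 ng/ml replicate 2 (0.119) or 3 (0.129), without WT 10 ng/ml replicate 1 (0.139) or 2 (0.149), in a fit of the compared groups alone (0.077), after cyclic loess (0.0622) and with a variance trend and robust moderation (0.0557). Of the others, H2ac1 lost it without DKO 10 ng/ml replicate 1 (0.0824) or 2 (0.0761) or 3 (0.0747) and without WT 10 ng/ml replicate 1 (0.143) or 2 (0.0672), H2bc18 without DKO 10 ng/ml replicate 1 (0.0664) and without WT 10 ng/ml replicate 2 (0.0858) and H2bc21 without DKO 10 ng/ml replicate 1 (0.0664) or 3 (0.168), without WT 10 ng/ml replicate 2 (0.0991) or 3 (0.155) and after cyclic loess (0.0598). H1f2 was not called (291 ± 44.7 and 400.4 ± 58.5, adjusted p = 0.379), nor were H2bc4, H2bc8, H2bc22, H3c15 and H4c8, whose log2 differences ran from 0.14 (H2bc22) to 1.39 (H3c15).

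At 2.2 ng/ml 2 members were lower and 0 higher in DKO cells, where 2.06% and 1.65% of all genes were. H2ac8 was 1.92-fold (95% CI 1.40 to 2.64) lower (adjusted p = 0.0134) and H2ac4 1.83-fold (95% CI 1.30 to 2.58) lower (adjusted p = 0.0385). The H2ac4 arrays read 400.4, 348 and 520.5 in WT and 206, 231 and 248 in DKO cells, with no overlap. The H2ac4 call ended without DKO 2.2 ng/ml replicate 1 (0.155) or 2 (0.108) or 3 (0.0641), without WT 2.2 ng/ml replicate 1 (0.0902) or 3 (0.224) and without WT day 2 replicate 3 and WT 2.2 ng/ml replicate 3 together (0.238). The H2ac8 call ended without DKO 2.2 ng/ml replicate 1 (0.108), without WT 2.2 ng/ml replicate 1 (0.056) or 3 (0.132), in a fit of the compared groups alone (0.103) and without WT day 2 replicate 3 and WT 2.2 ng/ml replicate 3 together (0.154). In 14 members every DKO array lay below every WT array, as for 8.18% of all genes.

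**Figure D3:**
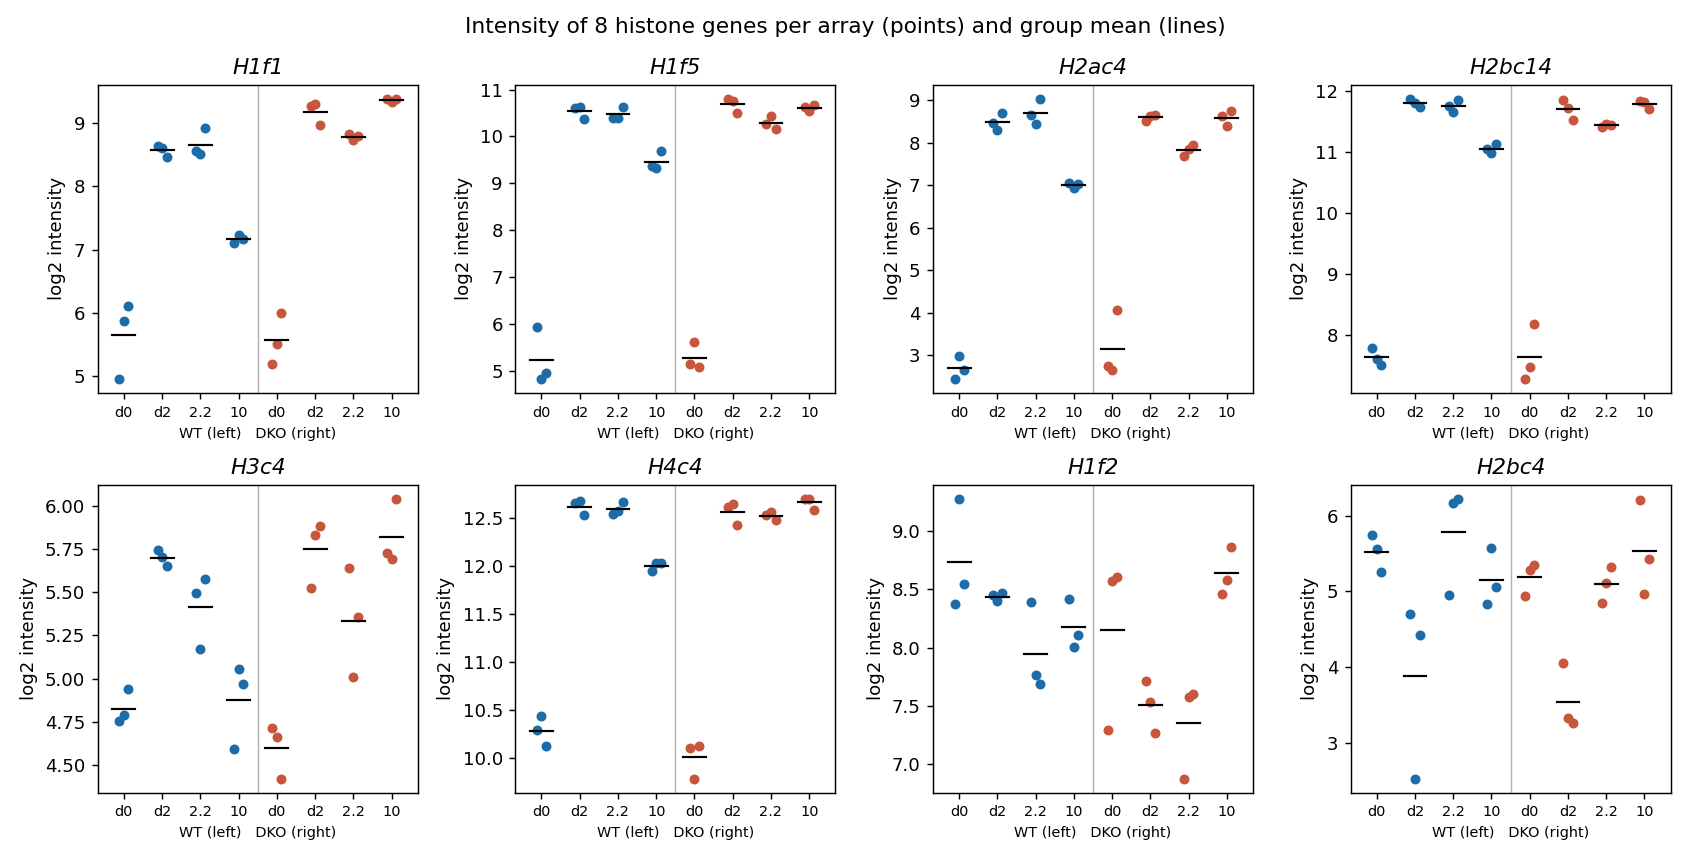
Log2 intensity of 8 histone genes in each group (d0 and d2 are days 0 and 2, and 2.2 and 10 the day 4 doses in ng/ml), WT in blue on the left and DKO in red on the right of each panel, with points for single arrays and lines for the group mean. In the panels of H1f1, H1f5, H2ac4, H2bc14 and H4c4 the WT points at 10 ng/ml lie below those at day 2 and at 2.2 ng/ml, and the DKO points at 10 ng/ml lie above the WT points at that dose.

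The dose effect itself differed between genotypes. The interaction (the DKO change from 2.2 to 10 ng/ml minus the WT change) was called in 18 of 26 members, all more positive in DKO cells, where 3.56% of all genes were called in that direction and 3.38% in the other. Its median over the members was 1.12 on the log2 scale, against 0.02 over all genes. It was largest for H2ac4 (2.45 ± 0.34, adjusted p = 2.78e-05), H3c15 (2.24 ± 0.67, adjusted p = 0.0421), H1f1 (2.08 ± 0.29, adjusted p = 3.7e-05) and H2ac8 (1.95 ± 0.31, adjusted p = 0.000202). H1f5 gave 1.33 ± 0.28 (adjusted p = 0.00345), H2bc14 1.05 ± 0.22 (adjusted p = 0.00292) and H4c4 0.73 ± 0.16 (adjusted p = 0.00405). The calls of 4 members ended without WT 2.2 ng/ml replicate 3: H1f3 at adjusted p = 0.0589, H2bc1 at 0.0501, H2bc18 at 0.0571 and H3c15 at 0.0924. H3c15 lost its call in 12 of 18 alternatives, up to an adjusted p of 0.134. H1f3 also lost it without WT 10 ng/ml replicate 2 (0.0699), DKO 2.2 ng/ml replicate 1 (0.0554) or DKO 10 ng/ml replicate 3 (0.0584), and H2bc1 and H2bc18 without WT 10 ng/ml replicate 2 (0.0551 and 0.0532). The 8 members not called were H1f2, H2ac1, H2bc4, H2bc8, H2bc21, H2bc22, H4c8 and H4c9, with values from 0.08 (H2bc21) to 1.41 (H4c8).

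The pattern can be read array by array as the median of the 26 log2 differences from the WT day 0 mean. WT arrays lay between -0.07 and 0.15 at day 0, 1.64 and 1.75 at day 2, 1.22 and 1.85 at 2.2 ng/ml and 0.95 and 1.28 at 10 ng/ml. DKO arrays lay between -0.20 and -0.05, 1.35 and 1.73, 0.97 and 1.26, and 1.94 and 2.12. The DKO arrays at 10 ng/ml were thus above all other arrays, and the WT arrays at 10 and at 2.2 ng/ml overlap on this measure.

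Histone genes without a probe set of their own appear among 26 probe sets annotated to several genes, at least 1 a replication-dependent histone gene. By these histone symbols, 10 were of H3, 7 of H2B, 6 of H4 and 3 of mixed classes. They name no single gene. From day 0 to day 2 all 26 increased in value, by 1.99 to 4.38 on the log2 scale in WT (median 3.40) and by 2.08 to 4.67 in DKO cells (median 3.59). In WT cells the increase was 4.14 to 4.38 for the 10 H3, 2.98 to 3.54 for the 7 H2B and 1.99 to 2.31 for the 6 H4 probe sets. From 2.2 to 10 ng/ml, 25 were lower and 1 higher in WT cells (-0.93 to 0.38, median -0.55) and all 26 higher in DKO cells (0.14 to 1.18). Between genotypes at 10 ng/ml all 26 were higher in DKO cells, by 0.46 to 1.06. The 10 shared H3 probe sets differed by 1.01 to 1.06 there. Many of these probe sets share probes and some gave equal values throughout, so they are not separate measurements and no test was made.

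Single markers of other cells moved at day 4 too. Between genotypes at 10 ng/ml, 1 of 8 myeloid markers was higher and 0 lower, and of 7 B cell markers 1 was higher and 1 lower. Of all genes 6.68% were higher and 6.09% lower. The median log2 difference was 0.01 for the myeloid and 0.03 for the B cell list, against 0.03 over all genes. With dose in WT cells 1 of 8 myeloid markers was lower, with a list median of -0.01 against -0.04 over all genes. The summed intensity of the 8 myeloid markers ran from 132 to 159 on the WT arrays and from 318 to 365 on the DKO arrays at 10 ng/ml, with Ctss the called gene (2.20 ± 0.18, adjusted p = 3.34e-09). At 2.2 ng/ml it ran from 232 to 330 in WT cells, where Ctss also fell with dose (-1.73 ± 0.18, adjusted p = 1.94e-07), and from 365 to 411 in DKO cells. That of the 7 B cell markers ran from 94.4 to 101 and from 141 to 181, with Cd79b higher (1.68 ± 0.18, adjusted p = 2.7e-07) and Ebf1 lower (-0.35 ± 0.12, adjusted p = 0.0492). The 6 NK and CD8 markers summed to 73.7 to 105 and 96.2 to 136, and the 8 CD4 T cell genes to 7492 to 8095 and 7112 to 7406. No listed marker is at 0, since the array scale has no true 0. The part of these markers in the histone differences was not tested.

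Genes that serve the histone messages moved in both directions. The shares of all genes are given first, for this list and those below. At day 2 in WT cells 19.7% rose and 20.5% fell. With dose in WT cells 7.52% fell and 7.64% rose, and at 10 ng/ml 6.68% were higher and 6.09% lower in DKO cells. Of 16 genes for histone pre-mRNA synthesis and processing, 14 rose and 0 fell in WT cells at day 2. At 10 against 2.2 ng/ml in WT cells 5 fell and 1 rose (median log2 change -0.12, against -0.04 over all genes), and between genotypes at 10 ng/ml 3 were higher and 2 lower in DKO cells. Slbp, the stem-loop-binding protein, rose 4.17-fold (95% CI 3.33 to 5.23) at day 2 in WT cells, was 1.55-fold (95% CI 1.24 to 1.95) lower at the higher dose (adjusted p = 0.00581) and 1.56-fold (95% CI 1.24 to 1.95) higher in DKO cells at 10 ng/ml (adjusted p = 0.00638). Eri1, an exonuclease that trims histone message ends and takes part in their decay, changed in the opposite sense: it was 1.63-fold (95% CI 1.34 to 1.98) higher at the higher dose in WT cells (adjusted p = 0.000603) and 1.71-fold (95% CI 1.40 to 2.08) lower in DKO cells (adjusted p = 0.000242). Srrt (-0.88 ± 0.12, adjusted p = 6.77e-06) and Ncbp1 (-0.71 ± 0.14, adjusted p = 0.000524), which act with the RNA cap, fell with dose in WT cells.

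Histone chaperones, which carry histones to DNA, moved in these comparisons too. Of 22 measured, 16 rose and 3 fell at day 2 in WT cells, 9 fell and 1 rose with dose in WT cells, and 10 were higher and 0 lower in DKO cells at 10 ng/ml. Asf1b, a chaperone of H3 and H4, gave -1.20 ± 0.18 with dose in WT cells and 1.28 ± 0.18 between genotypes on the log2 scale (adjusted p = 3.71e-05 and 1.77e-05). Nasp, a chaperone of H3 and of linker histones, gave -1.02 ± 0.17 and 1.01 ± 0.17 (adjusted p = 0.000122 and 0.000154), and Asf1a gave -0.60 ± 0.16 and 1.19 ± 0.16 (adjusted p = 0.0106 and 6.58e-06).

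Of 9 replication-independent histone genes measured, which are transcribed outside S phase as well, 5 rose at day 2 in WT cells and 0 fell. With dose in WT cells 2 fell and 1 rose, and at 10 ng/ml 4 were higher and 1 lower in DKO cells. H2ax, the H2A form phosphorylated at DNA breaks, gave -1.19 ± 0.16 with dose in WT cells and 1.24 ± 0.16 between genotypes (adjusted p = 5.3e-06 and 2.78e-06), and H2az1 gave -0.60 ± 0.11 and 0.63 ± 0.11. Macroh2a1, known from silent chromatin, ran the other way, with 0.52 ± 0.13 (adjusted p = 0.00554) and -0.47 ± 0.13 (adjusted p = 0.0158).

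Genes of DNA replication and mitosis are the reference for division. Of 25 replication genes 25 rose at day 2 in WT cells, 12 fell and 0 rose with dose in WT cells, and 19 were higher and 0 lower in DKO cells at 10 ng/ml, with medians of 3.00, -0.53 and 0.68. Tyms, which makes the thymidine nucleotide, gave -1.48 ± 0.18 with dose and 1.46 ± 0.18 between genotypes (adjusted p = 1.53e-06 and 1.82e-06). Of 14 mitosis genes 14 rose at day 2, 10 fell and 0 rose with dose in WT cells, and 11 were higher and 0 lower in DKO cells at 10 ng/ml, with medians of 4.56, -0.66 and 0.73. Kif11, a spindle motor, gave -1.03 ± 0.11 and 1.11 ± 0.11. Of 15 genes that control entry into S phase, 6 fell and 1 rose with dose in WT cells, and 6 were higher and 1 lower in DKO cells at 10 ng/ml. The lower one was Rbl2, a pocket protein that holds quiescent cells (-1.38 ± 0.18, adjusted p = 4.45e-06). The medians of the histone genes, -0.61 with dose in WT cells and 0.79 between genotypes, thus lay beside those of the replication and mitosis lists. No test of a difference between lists was made.

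**Figure D4:**
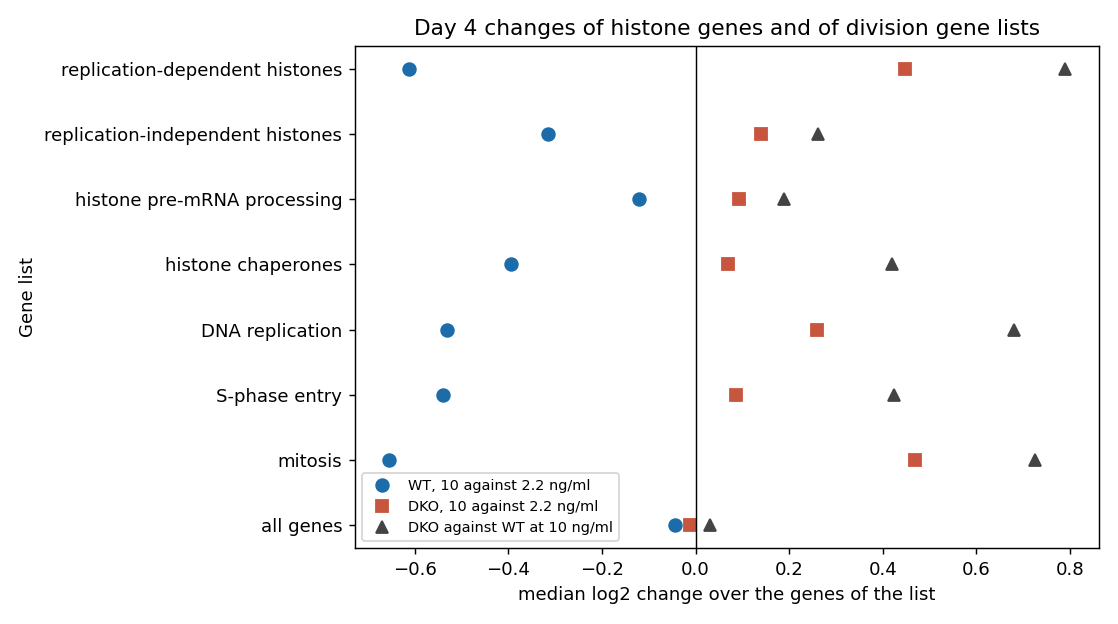
Median log2 change over the genes of each list (rows) for 10 against 2.2 ng/ml in WT cells (blue circles) and DKO cells (red squares) and for DKO against WT cells at 10 ng/ml (dark triangles), with all 19938 genes in the bottom row. Every list above that row is left of 0 for the WT dose and right of 0 for the other comparisons, the histone genes at -0.61, 0.45 and 0.79.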

How the data were processed

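The deposited values are intensities on a linear scale, which the authors obtained by RMA, per the submitters' processing notes. RMA corrects background, makes the distributions of all arrays equal (quantile normalization) and summarises probes. Its software version is not given in the sources used here. There were 35556 probe sets. Quantile normalization removes a change shared by most genes. Probe sets were named from GEO's platform annotation (21789 with 1 symbol, 1621 with several, 12146 with none), 1 per gene, the brightest by mean log2 over 24 arrays, and all 26 members matched RefSeq by gene ID. The log2 of the deposited intensities was fitted with limma 3.58.1 in R 4.3.3, as 8 group means (16 residual and 7.49 prior degrees of freedom) over 19938 genes. Benjamini-Hochberg adjustment ran over all genes within each of 18 comparisons, and a gene was called at adjusted p under 0.05.

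The members and the gene lists were chosen with earlier results of these data known. Members named with values are all H1 genes, up to 4 called members with the largest rise and fall in a comparison, and the brightest and dimmest probe set of each class. From each list up to 4 genes with the smallest p were named. Genes named for a lost call, and the day 2 levels of H2bc9 and H4c6, were added after their values were seen. Alternatives were a filter on dim genes, averaging all probe sets of a gene, cyclic loess, the compared groups alone, a replicate block, a variance trend, single arrays left out, and both WT arrays that an earlier analysis doubted left out (replicate 3 of day 2 and of 2.2 ng/ml). On simulated data for DKO against WT at 10 ng/ml with 19938 genes, limma recovered 9 of 50 genes changed by 0.5 and 44 of 50 changed by 1 on the log2 scale. It recovered all 50 changed by 2 and all 50 changed by 3, with 12 of 165 calls on unchanged genes. Far fewer genes were changed there than were called in the real comparison (6.68% higher and 6.09% lower). The adjustment is stricter with fewer changed genes, so the recovered shares need not hold for the real data. Precision is limited by the number of arrays. Promoter sequences came from RefSeq, build GRCm38.p6. Scan dates and batches were not used here.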

Additional observations from a re-analysis of the deposited data

Results flagged for a closer look

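In 18 of the 26 histone genes the effect of the anti-CD3e dose at day 4 differed between the genotypes by a test of the difference itself (limma, adjusted p under 0.05, 3.56% of all genes in that direction). The values are the DKO log2 change from 2.2 to 10 ng/ml minus the WT change, and all are positive. Among the H1 genes they were 2.08 for H1f1, 1.29 for H1f3 and 1.33 for H1f5. Among the H2A genes they were 2.45 for H2ac4, 1.95 for H2ac8 and 0.97 for H2ac15. The H2B genes gave 0.86 (H2bc1), 1.44 (H2bc3), 1.04 (H2bc9), 1.05 (H2bc14) and 1.27 (H2bc18). The H3 genes gave 1.03 (H3c4), 1.25 (H3c7) and 2.24 (H3c15), and the H4 genes 1.58 (H4c3), 0.73 (H4c4), 1.16 (H4c6) and 0.97 (H4c14). As given above, the calls of H1f3, H2bc1, H2bc18 and H3c15 ended in some alternatives, that of H3c15 in 12 of 18. Every group mean of H3c7 was below the guide.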

How the results depend on the processing

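Of 213 called changes of members, 166 kept their call under every alternative run, and of 2831 alternative values 193 lost the call. The log2 value itself could not move in 1135 of these, under the dim filter, the averaging of probe sets (members have 1 each), the compared groups alone, the block, the variance trend and where the arrays left out were of other groups. Of the 1696 that moved 0 turned direction. The filter on dim genes left 20 of the 26 members. It gave 1 called member for WT 2.2 ng/ml against day 2, 1 for DKO 10 ng/ml against day 2 and 1 for DKO against WT at 2.2 ng/ml, in place of 2, 5 and 2. A fit of the compared groups alone gave 4 for WT and 4 for DKO 2.2 ng/ml against day 2, 2 for DKO against WT at day 2 and 1 at 2.2 ng/ml, in place of 2, 2, 0 and 2. A variance trend gave 1 for DKO 2.2 ng/ml against day 2. Without replicate 3 of WT day 2 and of WT 2.2 ng/ml together, 0 were called for DKO against WT at 2.2 ng/ml and 8, as before, for the DKO dose. The dim filter and the smaller fits use fewer genes or arrays by construction, and otherwise the cause was not tested. Cyclic loess moved the median of all genes by 0.14 for WT day 2 and 0.13 for WT 10 ng/ml, each against day 0.

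With single arrays left out, the members called ran from 20 to 22 for WT and 21 to 23 for DKO day 2 against day 0. At day 4 against day 0 they ran from 17 to 20 (WT 2.2 ng/ml), 14 to 18 (WT 10 ng/ml), 18 to 20 (DKO 2.2 ng/ml) and 22 to 23 (DKO 10 ng/ml). Against day 2 they ran from 2 to 2, 13 to 16, 0 to 2 and 1 to 5 in the same order. Between genotypes they ran from 0 to 1 at day 0, 0 to 0 at day 2, 0 to 2 at 2.2 ng/ml and 15 to 19 at 10 ng/ml. For the dose they ran from 13 to 16 in WT and 5 to 7 in DKO cells, for the difference in activation between genotypes from 0 to 1 and for that in dose effect from 14 to 18.

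Groups share replicate numbers in the labels. Same-numbered arrays showed little common deviation (correlation of deviations -0.15 to 0.26, median 0.001, over 0.1 in 4 of 84 pairs). Of 24 arrays, 10 correlated best with their own number. With 3 arrays per group this check is weak, so it does not settle whether equal numbers mark a shared origin. With the replicate number as a block, 23 members were called for WT and 21 for DKO day 2 against day 0, 15 and 9 for the dose in WT and DKO cells, 21 for DKO against WT at 10 ng/ml and 19 for the dose difference. All 18 counts stayed within 1.5 times those without the block.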
